A study of Arabidopsis thaliana with 35 samples.

Results

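The transposable elements of chromosome 2 of Arabidopsis thaliana were followed through mature pollen of 7 genotypes. Elements were taken by identifier (AT2TE followed by a number), and an element was kept when at least 10 reads were counted on it in at least 5 of the 35 libraries. This left 57 of the 4461 such elements in the count tables, or 1.28%, and 561 elements had a read in any library. The 57 elements held 97.9 to 99.3% of the reads counted on transposable elements of this chromosome in each library. The same rule kept 46 elements of chromosome 1, 68 of chromosome 3, 36 of chromosome 4 and 58 of chromosome 5. Because the rule reads the counts themselves, the levels below are a description, and an element silent in wild-type pollen could enter only through the mutants.

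Transposable elements are sequences that can move within a genome, and plants keep most of them silent with DNA methylation, which proteins of a methyl-binding family read. In the vegetative cell of pollen, which carries the sperm cells and grows the pollen tube, heterochromatin is known to be loosened, and some elements are transcribed there that are silent elsewhere in the plant. MBD5 and MBD6 bind methylated CpG sites. SLN is a J-domain protein, a class of co-chaperones, known to act with them. ACD15.5 and ACD21.4 are proteins with an alpha-crystallin domain, the fold of small heat-shock proteins.

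Polyadenylated RNA was sequenced from mature pollen of ecotype Col0. The genotypes were wild-type, mbd5 mbd6 (both methyl-binding genes mutated), sln, acd15.5, acd21.4, acd15.5 acd21.4 (both alpha-crystallin genes) and acd15.5 acd21.4 sln (all 3 genes). Each genotype had 5 libraries, of which replicates 1 and 2 belonged to batch 1 and replicates 3 to 5 to batch 2. The sources used here give neither the mutant alleles nor plant age, nor whether replicates were planted separately. P-values therefore reflect the spread among these libraries, some of which may be technical. Pollen holds more than 1 cell type, and in such bulk samples fewer cells of a type and less RNA per cell cannot be told apart.

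Libraries held 9267958 to 22208090 counts in features (median 13847738). MBD6 fell from 0.807 ± 0.18 CPM (counts per 1000000 counts of the library) in wild-type to 0.0239 ± 0.0534 in mbd5 mbd6 (SD, n = 5). SLN fell from 4.43 ± 0.19 CPM to 0.282 ± 0.211 in sln and 0.232 ± 0.0533 in acd15.5 acd21.4 sln. MBD5, ACD15.5 and ACD21.4 had too few reads in wild-type pollen to check the labels. The 8 markers of the pollen vegetative cell summed to 19900 to 27300 CPM, the 5 sperm cell markers in the tables to 801 to 1050 CPM and the 6 leaf markers to 20 to 48.5 CPM. The ranges of all 3 sums in each mutant overlapped those in wild-type.

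Reads on the transposable elements of chromosome 2 made up a larger part of the library in every mutant than in wild-type. They were 0.0623 ± 0.00314% of counts in wild-type (SD, n = 5), 0.101 ± 0.0076% in mbd5 mbd6, 0.105 ± 0.0094% in sln and 0.120 ± 0.00858% in acd15.5. The share was 0.107 ± 0.00432% in acd21.4, 0.117 ± 0.0106% in acd15.5 acd21.4 and 0.104 ± 0.00816% in acd15.5 acd21.4 sln. The highest wild-type library, at 0.0671%, lay below the lowest mutant library, at 0.0942%. A single element, AT2TE27820, held 50.7 ± 2.48% of these reads in wild-type and 59.7 to 63.5% on average in the mutants. Without it the share was 0.0307 ± 0.00266% in wild-type and 0.0386 to 0.0443% on average in the mutants. On that measure sln and acd15.5 acd21.4 sln each had 1 library below the highest wild-type library, but the batches differed in level. Within batch 1 wild-type libraries were at most 0.0293% and libraries of these mutants at least 0.0334%. Within batch 2 these values were 0.0341% and 0.0353%. The elements of chromosome 2 also rose as a part of all reads on transposable elements, from 21.3 ± 0.634% in wild-type to between 25.5 and 27.7% on average in the mutants. With AT2TE27820 left out of both sums that part was 11.8 ± 0.335% in wild-type and 11.6 to 12.4% on average in the mutants, and the range of every mutant overlapped that of wild-type.

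**Figure D1:**
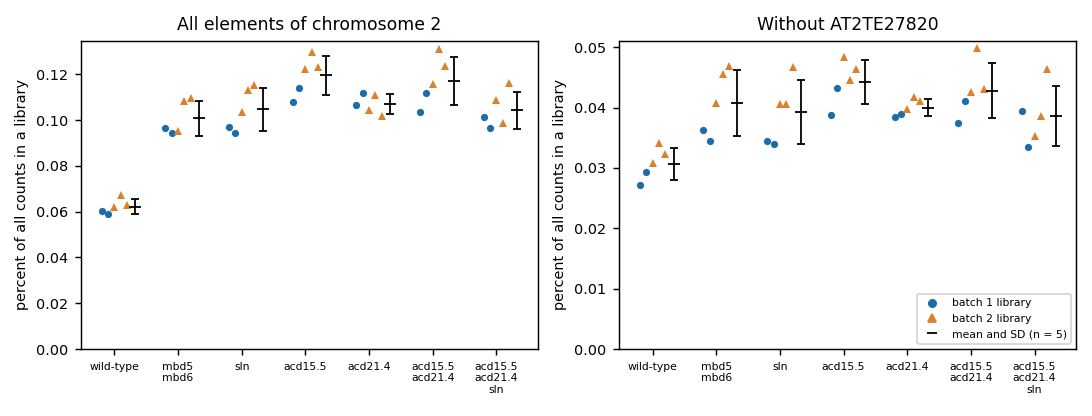
Percentage of all counts in a library (y axis) that fell on transposable elements of chromosome 2, with all elements on the left and without AT2TE27820 on the right, for 7 genotypes (x axis). Circles are batch 1 libraries, triangles are batch 2 libraries, and bars are the mean and SD of 5 libraries. With all elements every mutant library lies above the wild-type libraries. Without AT2TE27820 the ranges of sln and acd15.5 acd21.4 sln overlap that of wild-type over all libraries, but not within a batch.

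To find which elements changed, each mutant was compared with wild-type over the whole table of features with edgeR's quasi-likelihood test, with calls made at an adjusted p (Benjamini-Hochberg) under 0.05. Of the 57 elements, 56 had enough reads for the test and AT2TE75655 did not. In mbd5 mbd6, 22 of the 56 were called higher and 1 lower, where 4.09% of all 12106 features tested were called higher and 1.44% lower. In sln, 19 were called higher and 1 lower, beside 4.25% and 1.4% of all features; 1 of the 19, AT2TE12030, met the counting rule through the sln libraries themselves. In acd15.5, 23 were called higher and 1 lower, beside 3.46% and 1%. In acd21.4, 21 were called higher and 1 lower, beside 3.35% and 1.32%. In acd15.5 acd21.4, 22 were called higher and 1 lower, beside 3.7% and 1.18%. In acd15.5 acd21.4 sln, 19 were called higher and 3 lower, beside 3.82% and 2.36%. These counts are not independent of the choice of elements, since 16 of the 57 reached 10 counts in no wild-type library, and all 6 comparisons use the same wild-type libraries. Within batch 1 alone, with 2 libraries a genotype, 52 elements were tested. In the same order of mutants, 14, 14, 19, 17, 16 and 16 were called higher. The shares of all features called higher there were 2, 1.67, 2.32, 2.26, 2.22 and 2.13%. Within batch 2 alone, with 3 libraries, 57 elements were tested, and 19, 18, 22, 19, 20 and 19 were called higher. The shares of all features there were 3.27, 3.66, 2.97, 2.71, 3.14 and 3.31%.

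In wild-type alone, the rule was met by the 29 elements with 10 counts in all 5 libraries. Of these, 12 were called higher in at least 1 mutant and 7 in all 6. Over all features tested, no more than 3.35% can be higher in all 6, the share in acd21.4. The share of all features higher in at least 1 mutant was not counted. Over all 56 tested elements, which include some that met the rule only through mutants, the median log2 change lay between 0.17 and 0.38 in the 6 comparisons. Over all features tested it lay between -0.00 and 0.01. The median over the 56 is therefore not independent of the choice of elements.

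**Figure D2:**
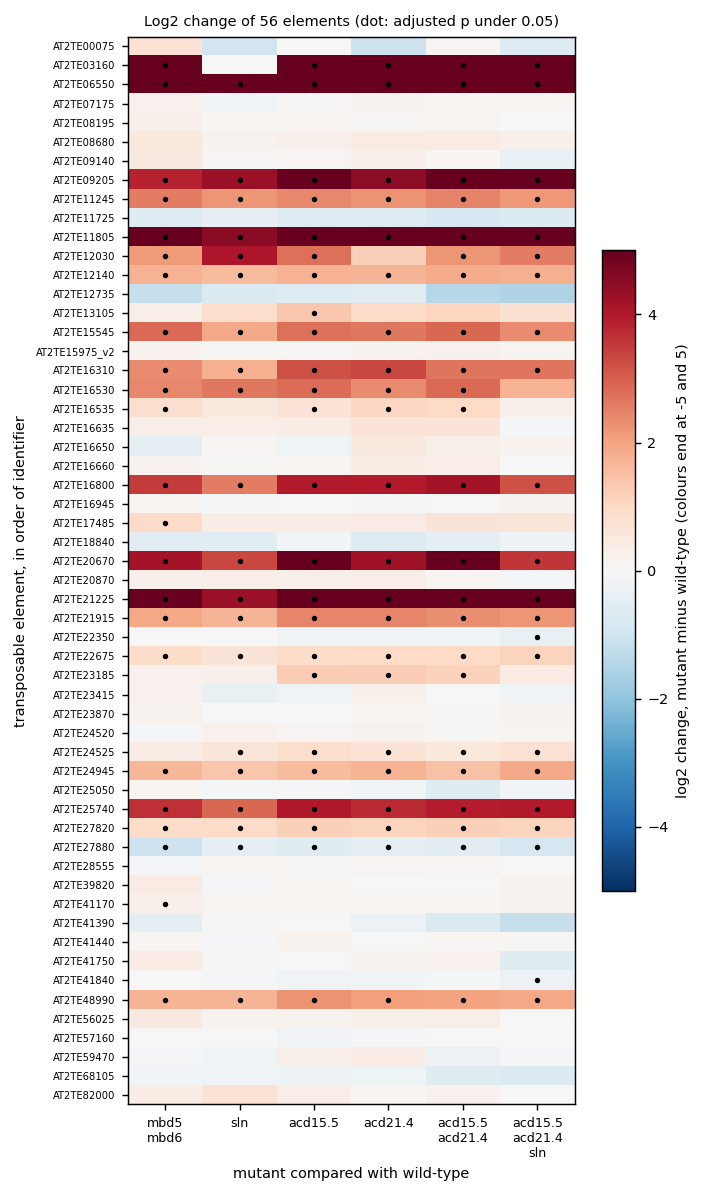
Log2 change of each of the 56 tested elements (rows, in order of identifier) in the 6 mutants (columns), each against wild-type, with dots at an adjusted p under 0.05. Colours end at -5 and 5, and where no wild-type library had a read the fitted change depends on the prior count. The 16 rows with a dot in every column are higher in all 6 mutants, and AT2TE27880 is lower in all 6.

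By pattern, 16 elements were called higher in all 6 mutants, 9 in 1 to 5 of them, 3 were called lower in at least 1 mutant, and 28 were called in none. Of all 12106 features, at most 3.35% can be higher in all 6, the share called higher in acd21.4. The shares of all features with the other patterns were not counted. The 16 were AT2TE06550, AT2TE09205, AT2TE11245, AT2TE11805, AT2TE12140, AT2TE15545, AT2TE16310, AT2TE16800, AT2TE20670, AT2TE21225, AT2TE21915, AT2TE22675, AT2TE24945, AT2TE25740, AT2TE27820 and AT2TE48990. Over the 14 of them with a read in wild-type, log2 changes had a median of 2.45 in mbd5 mbd6, 1.84 in sln, 2.59 in acd15.5, 2.54 in acd21.4, 2.57 in acd15.5 acd21.4 and 2.27 in acd15.5 acd21.4 sln. Among the mutants, sln had the lowest mean CPM for 10 of the 16, and acd15.5 had the highest for 6 and acd15.5 acd21.4 for 5.

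AT2TE27820, which took the most reads, rose in every mutant from an already high level. Its wild-type libraries held 332, 295, 313, 330 and 307 CPM. The mbd5 mbd6 libraries held 604, 597, 544, 629 and 630 CPM, and the acd15.5 libraries 692, 709, 739, 854 and 769 CPM. All 5 libraries of each mutant lay above all 5 wild-type libraries. The remaining means were 654 ± 50.3 CPM in sln, 671 ± 47 in acd21.4, 743 ± 64.3 in acd15.5 acd21.4 and 657 ± 56.9 in acd15.5 acd21.4 sln (SD, n = 5). The log2 change was 0.93 ± 0.06 in mbd5 mbd6 (standard error here and below; adjusted p = 5.52e-18 by edgeR), 0.95 ± 0.06 in sln and 1.18 ± 0.06 in acd15.5. It was 1.12 in acd21.4, 1.19 in acd15.5 acd21.4 and 1.1 in acd15.5 acd21.4 sln, each ± 0.06. Log2 changes come from the fit with its own library scaling and a batch term, so they need not equal the ratio of mean CPM.

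AT2TE25740 had a larger fold change than AT2TE27820, from a lower wild-type level. The wild-type libraries held 2.04, 3.09, 2.66, 1.79 and 2.01 CPM, the sln libraries 16.6, 17.7, 18.7, 20.4 and 17.8 CPM, and the acd15.5 libraries 33.7, 36.2, 45.2, 41.9 and 37.7 CPM. The 3 groups did not overlap. The mbd5 mbd6 mean was 29.0 ± 2.66 CPM, the acd21.4 mean 29.4 ± 3.1, the acd15.5 acd21.4 mean 35.7 ± 2.82 and the acd15.5 acd21.4 sln mean 34.7 ± 6.39 CPM (SD, n = 5). The log2 change ran from 2.87 ± 0.16 in sln (adjusted p = 4.91e-16, edgeR) to 4.01 ± 0.14 in acd15.5 (adjusted p = 2.53e-21, edgeR).

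AT2TE12140 rose in every mutant. It went from 7.27 ± 0.881 CPM in wild-type, with libraries between 6.3 and 8.67, to means between 23.0 and 27.3 CPM, and the lowest mutant library held 17.5 CPM. The log2 change lay between 1.59 ± 0.09 in sln and 1.86 ± 0.09 in acd15.5 acd21.4. AT2TE48990 went from 3.33 ± 0.537 CPM to 10.8 ± 1.26 in mbd5 mbd6 and 16.8 ± 2.39 in acd15.5, with log2 changes of 1.70 ± 0.11 and 2.26 ± 0.1. AT2TE15545 went from 1.15 ± 0.0928 CPM to 4.62 ± 1.13 in sln and 8.64 ± 0.809 in acd15.5 acd21.4, with log2 changes of 1.89 ± 0.16 and 2.86 ± 0.14. Wild-type and mutant libraries did not overlap in any of these comparisons.

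**Figure D3:**
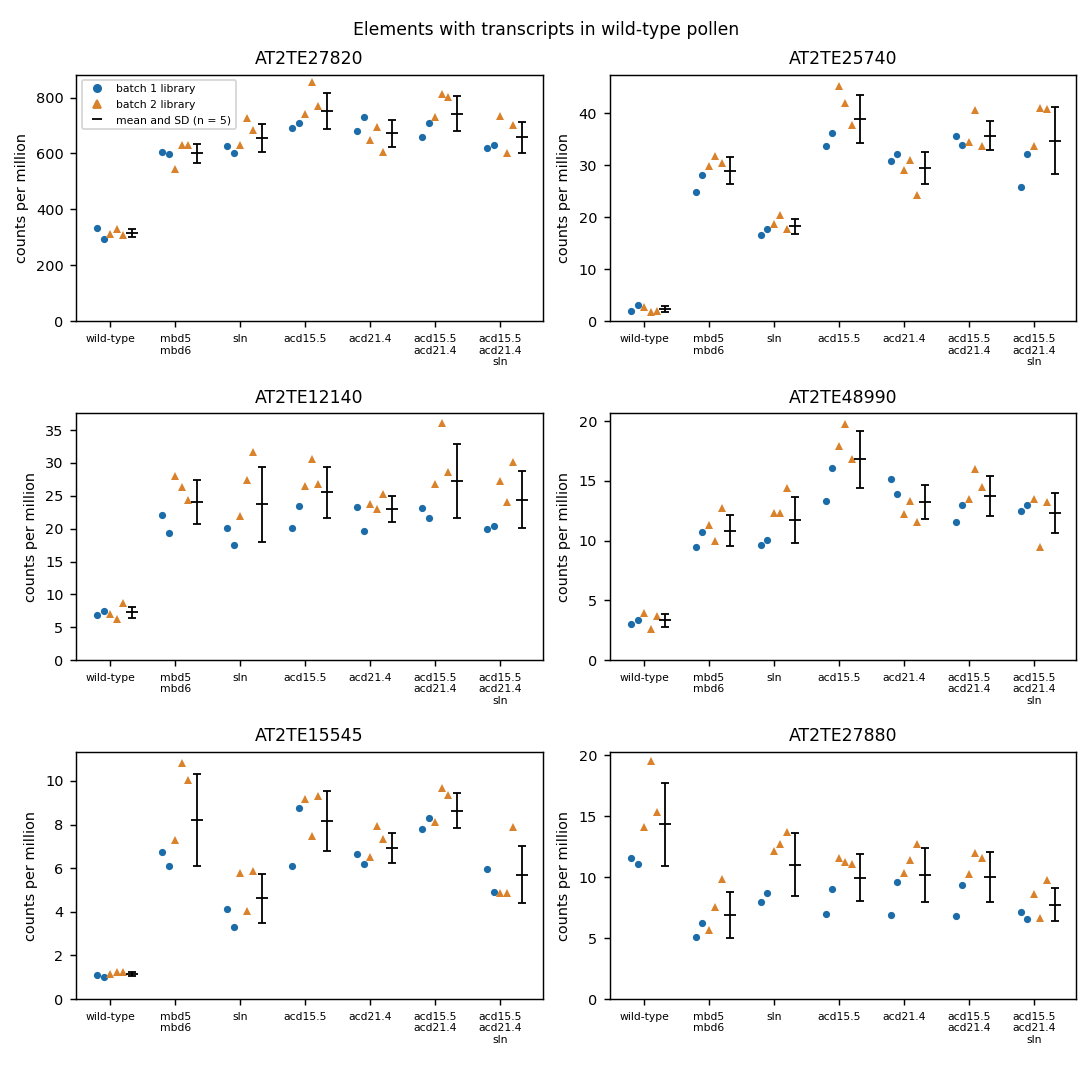
CPM (y axes, from 0) of 6 elements in the 35 libraries by genotype (x axes). Circles are batch 1 libraries, triangles are batch 2 libraries, and bars are the mean and SD of 5 libraries. The first 5 elements are higher in every mutant library than in wild-type, and AT2TE27880 is lower on average in the mutants. Its batch 1 libraries lie below its batch 2 libraries except in mbd5 mbd6 and acd15.5 acd21.4 sln, where the batches overlap.

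A further 6 elements of the shared set had wild-type means between 0.1 and 5.16 CPM. AT2TE11245 went from 1.14 ± 0.442 CPM in wild-type to between 5 and 6.77 CPM on average in the mutants, AT2TE21915 from 1.1 ± 0.279 to between 3.97 and 6.35, and AT2TE24945 from 1.41 ± 0.448 to between 4 and 5.24 (SD, n = 5). AT2TE22675 changed least, from 5.16 ± 0.857 CPM to between 8.75 and 10.8, with a log2 change of 0.65 ± 0.14 in sln (adjusted p = 0.00139, edgeR) and 1.1 ± 0.14 in acd15.5 acd21.4 sln. AT2TE16310 had too few wild-type reads to reach 10 in a library, at 0.163 ± 0.0979 CPM, and its means ran from 0.633 ± 0.147 CPM in sln to 1.66 ± 0.488 CPM in acd21.4. AT2TE16800 was lower still in wild-type, at 0.1 ± 0.0621 CPM, and reached 0.703 ± 0.205 CPM in sln and 2.08 ± 0.547 CPM in acd15.5 acd21.4.

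Several elements had no or almost no reads in wild-type. AT2TE03160, AT2TE06550 and AT2TE11805 had 0 counts in all 5 wild-type libraries, and a fold against them is a lower bound computed from 3 counts over the group. AT2TE06550 was at least 12.1-fold higher in acd15.5 acd21.4 and at least 20.9-fold higher in acd21.4, the ends of its range over the mutants. AT2TE11805 was at least 46.9-fold higher in acd15.5, from 168 counts over 5 libraries, and at least 4.65-fold higher in sln, from 16 counts. AT2TE21225 had 1 wild-type count, and its ratio of acd15.5 to wild-type was 138, each taken as counts summed over 5 libraries and divided by their summed totals, with an exact 95% counting interval of 24.5 to 5490. AT2TE09205 had 2 wild-type counts, and its ratio, computed in the same way, was 59.1 in acd15.5 acd21.4, with an interval of 16.0 to 494. These intervals cover counting error only, and the bounds cover that of the wild-type counts only.

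AT2TE03160 was the element whose presence depended most plainly on genotype. It had 0 counts in all 5 wild-type libraries and in all 5 sln libraries. The mbd5 mbd6 libraries held 2.43, 1.55, 2.02, 3.08 and 3.34 CPM, the acd15.5 acd21.4 libraries 3.60, 3.03, 2.59, 2.96 and 3.52 CPM, and the acd15.5 acd21.4 sln libraries 2.77, 2.20, 2.18, 2.15 and 3.40 CPM. Every library of these 3 genotypes had reads, as had every library of acd15.5, at 3.13 ± 0.371 CPM, and acd21.4, at 3.24 ± 0.686 CPM (SD, n = 5). Against wild-type the element was at least 58.2-fold higher in mbd5 mbd6 and at least 73.7-fold higher in acd21.4. Against sln it was at least 67.4-fold higher in acd15.5 acd21.4 sln, a genotype that also carries the sln mutation. These bounds cover counting error of the group with 0 counts only. Exact 95% counting intervals, which cover that of both groups, began at 46.8, 59.4 and 54.2 in the same order. The element met the counting rule only through the 25 libraries of the 5 mutants other than sln, so these folds are a description.

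The other 8 elements higher in only some mutants each missed the threshold elsewhere, which does not show that the mutants differ. AT2TE12030 was called in mbd5 mbd6, acd15.5, acd15.5 acd21.4 and acd15.5 acd21.4 sln, with its sln level given only as a description, AT2TE16530 was called in all but acd15.5 acd21.4 sln, and AT2TE24525 in all but mbd5 mbd6. AT2TE16535 was called in mbd5 mbd6, acd15.5, acd21.4 and acd15.5 acd21.4. AT2TE23185 was called in acd15.5 (log2 change 1.25 ± 0.19), acd21.4 (1.24 ± 0.2) and acd15.5 acd21.4 (1.14 ± 0.2), where it had 2.62 to 2.90 CPM on average, against 1.16 ± 0.385 CPM in wild-type and 1.34 to 1.52 CPM in the other mutants. AT2TE13105 was called in acd15.5 (adjusted p = 0.0442, edgeR), and AT2TE17485 (adjusted p = 0.0184) and AT2TE41170 (adjusted p = 0.0154) in mbd5 mbd6. The last 3 calls were near the threshold. The call of AT2TE13105 was lost without wild-type replicate 1, 2, 4 or 5 or acd15.5 replicate 1, 2, 4 or 5 (adjusted p = 0.0587 to 0.185). That of AT2TE17485 was lost without wild-type replicate 3 or 4 or mbd5 mbd6 replicate 5 (adjusted p = 0.0519 to 0.0617), and that of AT2TE41170 without wild-type replicate 2 or mbd5 mbd6 replicate 3 (adjusted p = 0.0559 and 0.0713). The mbd5 mbd6 call of AT2TE12030 was lost without wild-type replicate 2 or mbd5 mbd6 replicate 1 or 3 (adjusted p = 0.0579 to 0.0934). For AT2TE16535 the mbd5 mbd6 call was lost without wild-type replicate 4 (adjusted p = 0.059) and the acd15.5 call without wild-type replicate 3 or 4 or acd15.5 replicate 3 (adjusted p = 0.0787 to 0.132). For AT2TE24525 the sln call was lost without wild-type replicate 4 (adjusted p = 0.0727) and the acd15.5 acd21.4 call without wild-type replicate 2, 4 or 5 or acd15.5 acd21.4 replicate 2, 3 or 4 (adjusted p = 0.0655 to 0.22).

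AT2TE27880 was the element called lower in all 6 mutants and lies near AT2TE27820, which rose, in the order of identifiers. The wild-type libraries held 11.6, 11.1, 14.1, 19.5 and 15.3 CPM, the mbd5 mbd6 libraries 5.08, 6.27, 5.66, 7.53 and 9.85 CPM, and the acd15.5 acd21.4 sln libraries 7.13, 6.59, 8.59, 6.67 and 9.77 CPM. In these mutants no library reached the lowest wild-type library. The log2 change was -1.05 ± 0.1 in mbd5 mbd6 (adjusted p = 1.02e-11, edgeR) and -0.83 ± 0.1 in acd15.5 acd21.4 sln (adjusted p = 5.29e-09), and between -0.60 and -0.47 in the other 4. In those 4 the groups overlapped over all libraries, but the batches differed in level. Within batch 1 the wild-type libraries held 11.1 to 11.6 CPM and the mutant libraries at most 9.62 CPM, and within batch 2 the wild-type libraries held 14.1 to 19.5 CPM and the mutant libraries at most 13.7 CPM. With no batch term the acd21.4 call was lost (adjusted p = 0.0695, edgeR).

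AT2TE22350 and AT2TE41840 were called lower in acd15.5 acd21.4 sln. AT2TE22350 had 9.66 ± 0.809 CPM in wild-type and 7.25 ± 1.18 CPM there (log2 change -0.38 ± 0.1, adjusted p = 0.00944, edgeR), and AT2TE41840 had 32.3 ± 5.92 and 25.9 ± 4.1 CPM (log2 change -0.28 ± 0.07, adjusted p = 0.00739). The groups overlapped for both elements. The AT2TE41840 call was lost without acd15.5 acd21.4 sln replicate 3 (adjusted p = 0.0682) and with no batch term (adjusted p = 0.0977).

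The 28 elements called in no mutant included 14 with 10 counts in all 5 wild-type libraries. Among them were elements with many reads. AT2TE28555 had 34.1 ± 0.955 CPM in wild-type and 32.8 to 39.4 CPM on average in the mutants, AT2TE41440 had 34.6 ± 5.39 and 34.5 to 40.5 CPM, and AT2TE16945 had 25.6 ± 2.42 and 23.8 to 28.0 CPM. Over the 28, fitted log2 changes ran from -1.5 to 0.73. The lowest was AT2TE12735 in acd15.5 acd21.4 sln, at 0.458 CPM against 1.24 CPM in wild-type (-1.50 ± 0.71, adjusted p = 0.266, edgeR). Its libraries scattered widely, from 6 to 35 counts in wild-type and from 0 to 27 in acd15.5 acd21.4 sln. With that spread a change of that size did not pass the test.

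The mutants were then compared with each other. In sln against mbd5 mbd6, 10 of the 56 elements were called, 2 higher and 8 lower in sln, beside 2.97% of all features called in either direction, 1.04% higher and 1.92% lower. In acd15.5 acd21.4 against sln, 13 were called, 12 of them higher in acd15.5 acd21.4, beside 2.73% of all features, 1.75% higher and 0.975% lower. In acd15.5 acd21.4 against mbd5 mbd6, 5 were called, all higher in acd15.5 acd21.4, beside 1.58%, 1.15% higher and 0.43% lower. In acd15.5 acd21.4 sln against sln, 12 were called, 9 higher and 3 lower, beside 4.25%, 2.81% higher and 1.45% lower. That count fell to 6 without sln replicate 5. In acd15.5 acd21.4 sln against acd15.5 acd21.4, 6 were called, all lower, beside 2.14%, 0.71% higher and 1.43% lower. AT2TE12030, which met the counting rule through the sln libraries, is in the counts against sln and is 1 of the 2 higher in sln against mbd5 mbd6, the 1 lower in acd15.5 acd21.4 against sln and 1 of the 3 lower in acd15.5 acd21.4 sln against sln. These comparisons share genotypes and are not independent of each other. Of 182 calls of named elements over all 14 comparisons, 111 were also made in batch 1 alone and 158 in batch 2 alone.

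**Figure D4:**
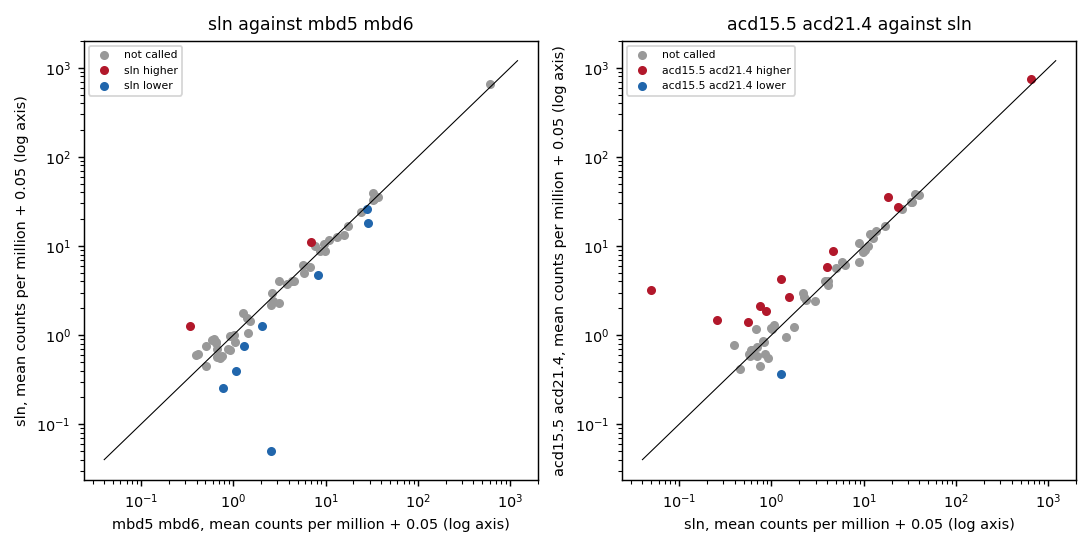
Mean CPM plus 0.05 of the 56 tested elements, on log axes, in sln (y axis) against mbd5 mbd6 (x axis) on the left and in acd15.5 acd21.4 (y axis) against sln (x axis) on the right. Red and blue points are elements called higher and lower at an adjusted p under 0.05, grey points are not called, and the line marks equal levels. Most called elements lie on the side where sln is lower, 8 of 10 on the left and 12 of 13 on the right.

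Levels in sln were below those of other mutants for several elements. AT2TE25740 was lower in sln than in mbd5 mbd6 (log2 difference -0.78 ± 0.11, adjusted p = 5.43e-06, edgeR), and acd15.5 acd21.4 exceeded sln by 1.04 ± 0.1 (adjusted p = 5.95e-09). The libraries did not overlap in either comparison. AT2TE15545 was lower in sln than in mbd5 mbd6 by the same test (-0.94 ± 0.11, adjusted p = 3.14e-08), and acd15.5 acd21.4 exceeded sln by 0.97 ± 0.11. AT2TE27820 differed little, with acd15.5 acd21.4 above mbd5 mbd6 by 0.27 ± 0.06 (adjusted p = 0.00298, edgeR) and above sln by 0.25 ± 0.06 (adjusted p = 0.00483). In batch 1 alone these differences were 0.17 and 0.19 and neither was called. AT2TE12030 went the other way. It had 1.21 ± 0.226 CPM in sln and at most 0.469 CPM on average in the other genotypes, but fewer than 5 libraries outside sln and each compared genotype held 10 counts, so this is a description.

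AT2TE20670 separated the alpha-crystallin mutants. The acd15.5 libraries held 3.15, 4.31, 4.28, 4.24 and 4.42 CPM, the acd21.4 libraries 2.33, 2.42, 2.46, 1.41 and 1.62 CPM, and the acd15.5 acd21.4 libraries 4.65, 3.99, 4.47, 4.07 and 3.97 CPM. All acd21.4 libraries lay below those of both other genotypes. It was the element called in acd21.4 against acd15.5 (log2 difference -0.88 ± 0.14, adjusted p = 0.000237, edgeR), where 0.24% of all features were called (0.0743% higher, 0.165% lower), and in acd15.5 acd21.4 against acd21.4 (0.96 ± 0.14, adjusted p = 3.54e-05), where 0.248% were called (0.19% higher, 0.0578% lower). Both calls were lost in batch 1 alone, where the differences were -0.64 and 0.90 with 2 libraries a genotype. In acd15.5 acd21.4 against acd15.5, edgeR called 0 elements, DESeq2 called 0, and 6 had an unadjusted p under 0.05, beside 0.207% of all features called (0.124% higher, 0.0826% lower).

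Adding the sln mutation to acd15.5 acd21.4 went with lower levels of some of these elements. AT2TE20670 had 4.23 ± 0.311 CPM in acd15.5 acd21.4 and 1.31 ± 0.223 CPM in acd15.5 acd21.4 sln (log2 difference -1.61 ± 0.15, adjusted p = 7.83e-11, edgeR), close to the 1.22 ± 0.242 CPM of sln alone. AT2TE11805 had 1.44 ± 0.387, 0.459 ± 0.149 and 0.207 ± 0.135 CPM in the same order (log2 difference -1.52 ± 0.31, adjusted p = 0.0022, edgeR), and its difference was -1.64 in batch 1 alone and -1.44 in batch 2 alone, where neither was called. For AT2TE25740 and AT2TE03160 the acd15.5 acd21.4 sln level stayed near that of acd15.5 acd21.4, and AT2TE25740 exceeded sln by 1.08 ± 0.1 (adjusted p = 7.37e-09, edgeR). AT2TE09205 was likewise above sln, at 1.69 ± 0.463 against 0.83 ± 0.124 CPM (log2 difference 1.19 ± 0.27, adjusted p = 0.00467, edgeR).

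**Figure D5:**
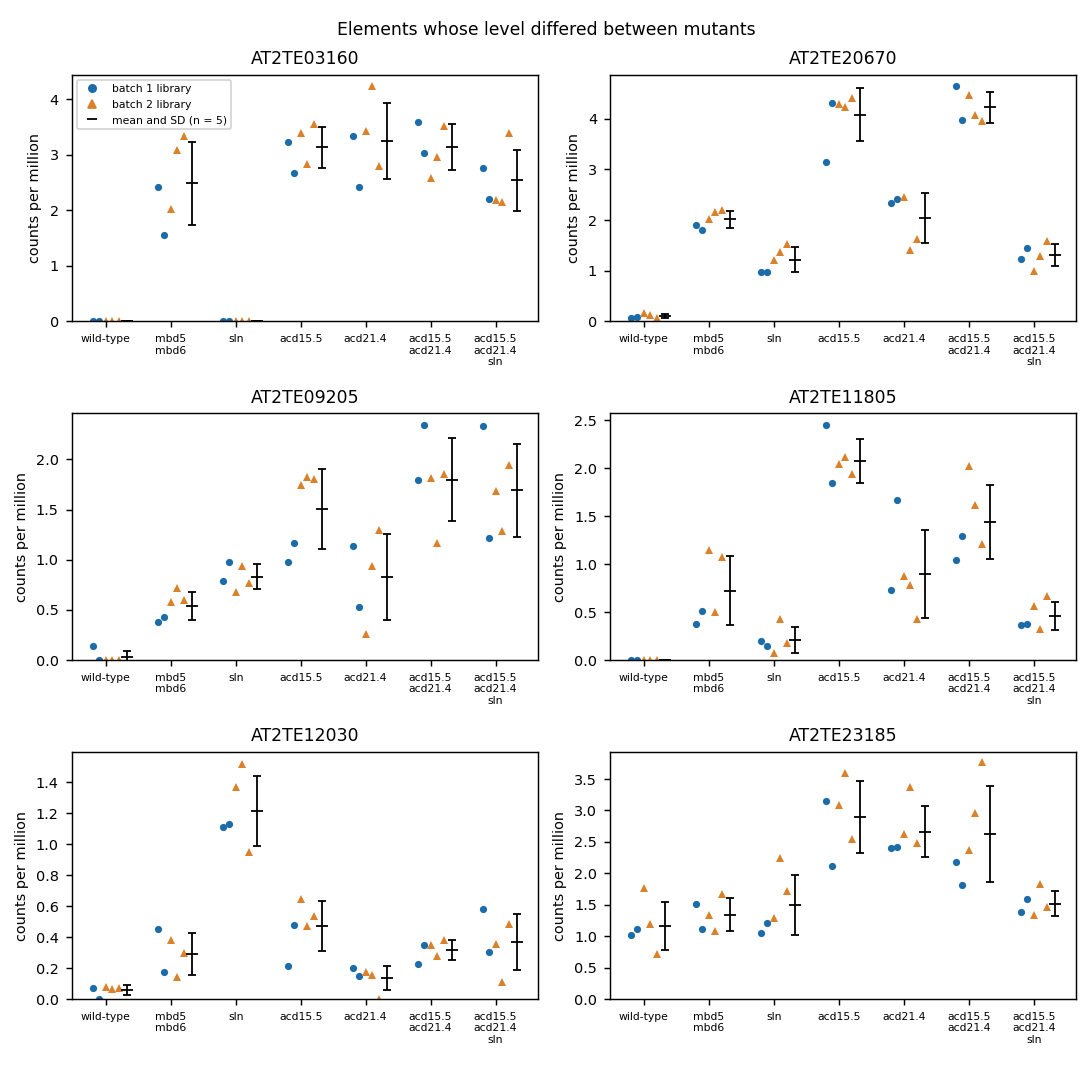
CPM (y axes, from 0) of 6 elements whose level differed between mutants, in the 35 libraries by genotype (x axes). Circles are batch 1 libraries, triangles are batch 2 libraries, and bars are the mean and SD of 5 libraries. AT2TE03160 has no reads in wild-type and sln, AT2TE20670 is highest in acd15.5 and acd15.5 acd21.4, and AT2TE12030 is highest in sln.

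The elements were also grouped by the number in their identifier, and the differences between these groups were not tested. Of 8 tested elements numbered below 10000, 2 were called higher in all 6 mutants. This held for 6 of 19 numbered from 10000 to 20000, for 7 of 17 numbered from 20000 to 30000 and for 1 of 12 with higher numbers. Of all features tested, at most 3.35% can be higher in all 6, the share called higher in acd21.4. Some elements met the counting rule only through mutants, so these counts are not independent of the choice of elements. The tables list 813, 1007, 1011 and 1630 elements in these ranges. Neighbours by number did not always move together. AT2TE24525 was called higher in 5 mutants, whereas AT2TE24520 had 7.89 ± 0.925 CPM in wild-type and 7.60 to 9.85 CPM on average in the mutants and was called in none.

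Of 34 genes of DNA methylation, small RNA and methyl reading, 18 had enough reads for the test, and at most 1 was called higher and 1 lower in any mutant. Over all features tested, 3.35 to 4.25% were called higher and 1 to 2.36% lower across the 6 mutants. ROS1, a DNA glycosylase that removes DNA methylation, had only 0.705 ± 0.144 CPM in wild-type (SD, n = 5). It rose in mbd5 mbd6 (log2 change 1.21 ± 0.25, adjusted p = 0.000495, edgeR), sln (0.82 ± 0.25, adjusted p = 0.0399) and acd15.5 acd21.4 (1.17 ± 0.24, adjusted p = 0.000658). MORC6, an ATPase of heterochromatin silencing, fell by 0.38 in acd15.5 and by 0.36 in acd21.4 on the log2 scale. SUVH5, a histone H3 lysine 9 methyltransferase, rose by 0.30 ± 0.07 in acd15.5. No other gene of the list was called apart from the mutated MBD6 and SLN. MET1, the maintenance CpG methyltransferase, had 78.7 ± 5.61 CPM in wild-type and 71.1 to 90.4 CPM on average in the mutants.

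The elements nearest the counting rule were few in reads. AT2TE09140, AT2TE16650 and AT2TE59470 were just inside it, with a fifth-highest count of 11 over the 35 libraries, and none was called against wild-type. AT2TE10230, AT2TE23345 and AT2TE35695 were just outside, with a fifth-highest count of 9.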

How the data were processed

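The authors deposited a table of raw whole-number read counts per feature for each of the 35 libraries. Per the labels' protocols, RNA was made into libraries with the TruSeq stranded mRNA protocol. The submitters' processing notes name HTSeq, STAR, deepTools and Trim Galore with build TAIR10; the sources used here give no versions, settings or strand choice. The line for reads with several alignments was 0 in every library, so values of repeated elements are uncertain, as are those of elements overlapping genes. Element positions, lengths and families were not used here, so where levels of elements stand side by side they are not corrected for length. Lines of the HTSeq summary were not counted or tested; 0.217 to 0.999% of reads lay in no feature.

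Tests used edgeR 4.0.16 in R 4.3.3 (quasi-likelihood, robust, TMM, filterByExpr with a minimum count of 10 and total of 15), in 1 fit of 35 libraries with genotype and batch, adjusted over 12106 features. A test is given only where at least 5 libraries outside both genotypes met 10 counts. Named elements were those with the 6 highest wild-type CPM, the largest called changes in each comparison and those nearest the rule; 17 of the 35 named were added after their values were seen. The elements and lists were chosen with earlier results of these data known. Replicate pairs within a genotype differed beyond sampling noise in all 70 cases (chi-square per degree of freedom at least 2.7). Alternatives were DESeq2 1.42.0, its size factors in edgeR, no filter, no batch term, a replicate block, a covariate, each batch alone, only the genotypes compared, and leaving out each library.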

Additional observations from a re-analysis of the deposited data

Results flagged for a closer look

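In 14 of 241 groups of 5 libraries, over 35 named elements, 1 library stood far from the other 4, with a gap above 0.71 of the group's range. Chance gives about 1 in 20 such groups. No explanation was tested for any of them.

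Of the low values, AT2TE00075 had 0.384 CPM in acd15.5 acd21.4 replicate 5 (others 0.749 to 0.839), AT2TE20670 had 3.15 CPM in acd15.5 replicate 1 (others 4.24 to 4.42) and AT2TE48990 had 9.46 CPM in acd15.5 acd21.4 sln replicate 4 (others 12.4 to 13.5). AT2TE12030 had 0 CPM in wild-type replicate 2 (others 0.0664 to 0.0805) and 0 CPM in acd21.4 replicate 5 (others 0.151 to 0.2).

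Of the high values, AT2TE25740 had 40.5 CPM in acd15.5 acd21.4 replicate 4 (others 33.8 to 35.7) and AT2TE41170 had 36.1 CPM in the same library (others 28.9 to 30.8). AT2TE11245 had 8.95 CPM in acd15.5 acd21.4 replicate 5 (others 5.77 to 6.36). In acd21.4, AT2TE06550 had 1.53 CPM in replicate 1 (others 0.614 to 0.862) and AT2TE23185 had 3.37 CPM in replicate 4 (others 2.4 to 2.63). AT2TE59470 had 0.794 CPM in sln replicate 4 (others 0.228 to 0.36) and 0.704 CPM in acd15.5 acd21.4 sln replicate 3 (others 0.227 to 0.364). In wild-type, AT2TE09205 had 0.146 CPM in replicate 1, from 2 counts, and AT2TE21225 had 0.0716 CPM in replicate 5, from 1 count, where the other libraries had 0.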

How the results depend on the processing

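No result changed direction under any alternative run, and the cause of a changed count was not tested. In batch 1 alone, with 2 libraries a genotype, elements called higher numbered 14 in mbd5 mbd6, and elements called lower numbered 0 in sln, acd15.5, acd21.4 and acd15.5 acd21.4 and 1 in acd15.5 acd21.4 sln. In the same batch, 3 were called in sln against mbd5 mbd6, 2 in acd15.5 acd21.4 against mbd5 mbd6, 5 in acd15.5 acd21.4 against sln, 0 in acd21.4 against acd15.5, 0 in acd15.5 acd21.4 against acd21.4, 1 in acd15.5 acd21.4 sln against acd15.5 acd21.4 and 2 in acd15.5 acd21.4 sln against sln. Only 52 elements were tested in batch 1 alone. In each of these comparisons a smaller share of all features was called there, in each direction, than with all 35 libraries. In batch 2 alone, 2 were called in acd15.5 acd21.4 sln against acd15.5 acd21.4, beside 0.275% of all features higher and 0.527% lower. With no batch term, 0 were lower in acd21.4 and 6 were called in acd15.5 acd21.4 sln against sln. With only the genotypes compared in the fit, which also left fewer elements tested, 12 were higher in sln, 3 were called in acd21.4 against acd15.5 and 6 in acd15.5 acd21.4 sln against sln. With no low-count filter, 3 were called in acd21.4 against acd15.5 and 2 in acd15.5 acd21.4 against acd21.4, and with the covariate 2 in acd21.4 against acd15.5. Leaving out each library gave 2 to 5 lower in acd15.5 acd21.4 sln (5 without its replicate 1), 1 to 2 called in acd21.4 against acd15.5 (2 without acd21.4 replicate 2), 1 to 2 in acd15.5 acd21.4 against acd21.4 (2 without acd15.5 acd21.4 replicate 4) and 6 to 16 in acd15.5 acd21.4 sln against sln (6 without sln replicate 5). DESeq2 kept 172 of the 182 calls of named elements and did not make 6, and the remaining calls had no adjusted p in it. In acd15.5 acd21.4 sln against sln it gave an adjusted p to only 25 of the 56 elements. Its size factors in edgeR kept 181.

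Replicate numbers were not taken to pair the samples, since the sources used here do not say that they do. Same-numbered deviations had a lowest correlation of -0.456 and medians of -0.0645 to 0.00992. Deviations were taken after removing genotype and batch means, so they cancel over a genotype and over a batch. Negative correlations can arise in that way and do not decide on pairing. Among 35 libraries, 21 correlated best, on average, with the libraries of their own number, a hint from the data and not from the design. The number that would do so without pairing was not computed. With the replicate block in place of batch, 20 elements were higher in sln and 20 in acd15.5 acd21.4 sln, 14 were called in acd15.5 acd21.4 against sln, 7 in acd15.5 acd21.4 sln against acd15.5 acd21.4 and 14 in acd15.5 acd21.4 sln against sln. The block kept 181 of the 182 calls of named elements. Depth limits the elements under about 1 CPM, where a library holds few reads.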
